A study of Mus musculus with 8 samples.

Results

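Id1, Id2, Id3 and Id4 encode the ID proteins, and Smad1, Smad5, Smad9, Smad4, Smad6 and Smad7 encode the SMAD proteins that carry, complete or dampen the BMP signal. These 10 genes were chosen by name, as the intracellular effectors of BMP signalling and the Id genes that they induce, among 23694 named genes in the female table and 23409 in the male table. Each of the 10 had 1 row in both tables, and 9 of 10 in each sex passed the filter for testing, a mean of at least 1 FPKM (fragments on a gene, scaled by the length of its transcript and by the mapped fragments of the library) over the 4 libraries. Smad9 was below it in both sexes.

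RNA-Seq was performed on E15.5 mouse germ cells isolated with the Oct4-EGFP transgene, a green fluorescent reporter under the Oct4 promoter carried by control and mutant embryos alike. Each sex had 2 control and 2 Snf5 CKO libraries, 8 in all, prepared from total RNA with SMART-Seq amplification. Snf5 CKO embryos were Snf5 fx/Δ with TNAP-Cre, in which Cre is expressed from the Alpl locus and recombines in primordial germ cells (PGCs), and control samples mixed the genotypes Snf5 fx/+, Snf5 fx/Δ and Snf5 fx/+ with TNAP-Cre. The labels give a C57BL/6 background, whereas the methods of the study describe a mixed genetic background. Recombination differed between animals and some germ cells kept Snf5, so the mutant libraries contain cells of both kinds. The floxed part is the first exon. Snf5, listed as Smarcb1, was at 23.4 and 22.3 FPKM in female controls, at 4.24 and 2.47 in female Snf5 CKO, at 141 and 167 in male controls and at 8.73 and 10.1 in male Snf5 CKO. Both sexes therefore carried the difference that the labels state (log2 fold change -2.48 in females and -3.90 in males, adjusted p = 0.000273 and 0.00213, limma). The sums of FPKM per library lay between 673741 and 1554760. The tables hold no read counts, and the depth as a multiple of that sex's control replicate 1, read from steps among low values, lay between 0.953 and 2.45. The lowest value, that of male control replicate 2, is uncertain, as described with the processing. Ddx3y, on the Y chromosome, was listed at 0 in all female libraries and between 5.48 and 8.79 FPKM in male libraries. The 9 germ cell markers summed to 1885 and 1926 FPKM in female control and 3002 and 3179.9 in female Snf5 CKO, and to 5138 and 5551 in male control and 4513 and 5084 in male Snf5 CKO. In females 5 markers were higher in both Snf5 CKO libraries than in both controls and 4 lower, with Pou5f1 at 8.63 and 16.7 FPKM in control and at 295 and 333 in Snf5 CKO, and Mael at 669.8 and 631 and at 203 and 139.99. In males 4 were higher and 5 lower, with Mael at 992 and 1005 FPKM in control and at 107 and 148 in Snf5 CKO. Ddx4 was among the lower ones in both sexes. Dazl was among the lower ones in females and the higher ones in males, at 697 and 606 FPKM in male control and at 997 and 789 in male Snf5 CKO. For comparison, the groups did not overlap in either direction for 81.6% of all genes tested in females and 74.5% in males. In the principal component analysis of the study, Snf5 CKO cells of both sexes lay among normal germ cells of embryonic days before E15.5. The part of the marker shifts and of this difference in stage in the results on the members was not tested.

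BMP ligands bind paired type I and type II receptors at the cell surface. The activated receptors phosphorylate SMAD1, SMAD5 and SMAD9, which join SMAD4, enter the nucleus and turn on target genes, the Id genes foremost among them. SMAD6 and SMAD7 are induced by the same signal and act against it, at the receptors and at the SMAD complexes. ID proteins are helix-loop-helix proteins without a DNA-binding region: they pair with E proteins and other basic helix-loop-helix (bHLH) factors and keep these from binding DNA. In the germline, BMP signals specify PGCs in the early embryo and later induce Zglp1, a regulator of the oogenic programme, in fetal ovaries.

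In female germ cells, Id1, Id2, Id3 and both inhibitory SMAD genes were 2.43 to 5.54 times as high in Snf5 CKO as in control, while Id4 and Smad5 fell, with control levels 4.67 and 2.69 times those of the mutant. In male germ cells Id2, Id3, Smad1 and Smad6 rose and Id4 fell. A gene was called at an adjusted p under 0.05 together with a log2 fold change of 1 or more in either direction (limma on log2(FPKM + 1), Benjamini-Hochberg over all genes tested). By this rule 7 of 9 members changed in females, 5 higher and 2 lower, where 38.9% of all 11529 genes tested were called (17.3% higher and 21.6% lower). In males 5 of 9 changed, 4 higher and 1 lower, where 31.8% of 12279 genes were called (14.4% higher and 17.4% lower). The median log2 fold change of the members was 1.28 in females and 0.84 in males, and that of all genes tested was -0.13 and -0.07. With the variance of each gene taken alone, 5 of 9 female and 0 of 9 male members passed, and 6 of 9 male members then had an unadjusted p under 0.05. An exact two-sided permutation test on 2 against 2 libraries has 0.333 as its smallest p, so p is given only from limma. Fold changes on this scale understate the change of genes with low values, and in bulk samples fewer cells of a type and less RNA per cell cannot be told apart.

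**Figure D1:**
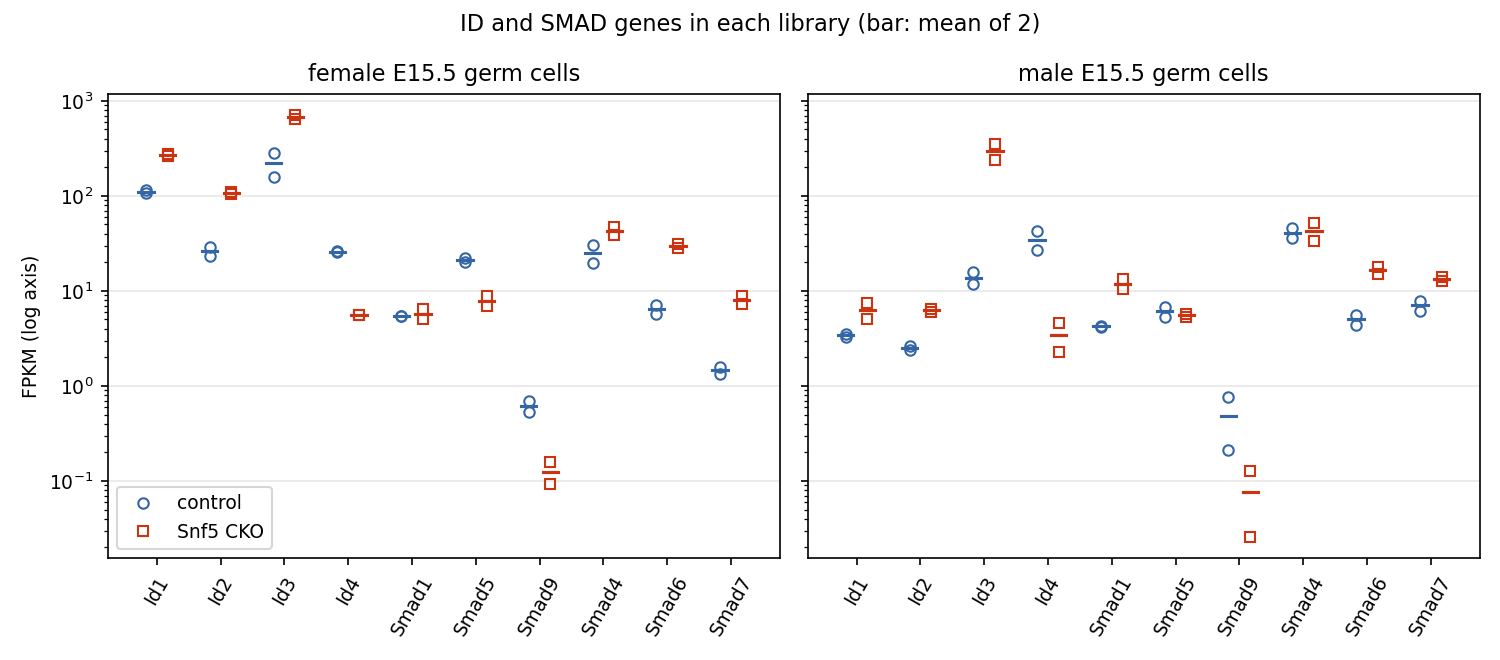
FPKM (log axis) of the 10 ID and SMAD genes in each of the 8 libraries, females on the left and males on the right; circles are control and squares Snf5 CKO libraries, and a bar marks the mean of 2. Id4 sits at 25.5 to 42.7 FPKM in the controls of both sexes and at 2.29 to 5.58 in Snf5 CKO, while Id3 in males goes from 11.7 and 15.7 to 240.5 and 352.

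Among the ID genes, Id4 fell in both sexes, whereas each other call among them was a rise. In females its level was 26.3 and 25.5 FPKM in control and 5.52 and 5.58 FPKM in Snf5 CKO. The replicates were nearly equal and the groups lay far apart, with a control level 4.67 times that of the mutant. Id4 fell by 2.04 on the log2 scale (SE 0.17, adjusted p = 0.00018, limma). In males its level was 26.7 and 42.7 FPKM in control and 2.29 and 4.64 FPKM in Snf5 CKO. Both mutant libraries were again below both controls, and the control mean was 10.0 times the mutant mean. The male log2 fold change was -3.01 (SE 0.36, adjusted p = 0.00391, limma). Id4 is known in the postnatal testis as a marker of spermatogonial stem cells. In mm10 the tables place Id4 on chromosome 13 from 48044231 to 48264036, a span shared with the row of A330033J07Rik, whereas the annotated gene (GENCODE, GRCm38) lies on the plus strand from 48261228 to 48266026. The library kit does not mark the strand, so reads where both transcripts overlap cannot be told apart. A330033J07Rik was at 0 to 0.0512 FPKM in females and, in males, at 1.68 and 2.34 FPKM in control and at 0 and 0.0484 in Snf5 CKO.

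The promoter of Id4 is shown because this gene fell in both sexes. It covers the 250 bases before the RefSeq start, chr13:48260866-48261115 of GRCm38.p6 on the plus strand, and capitals mark GGCGCC, a GC-rich element bound by SMAD1 and SMAD5.
Id4: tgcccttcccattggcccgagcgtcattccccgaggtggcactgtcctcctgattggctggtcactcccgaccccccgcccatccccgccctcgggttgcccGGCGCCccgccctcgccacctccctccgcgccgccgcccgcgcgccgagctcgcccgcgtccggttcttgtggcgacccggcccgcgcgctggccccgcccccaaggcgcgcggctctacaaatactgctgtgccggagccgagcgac
GGCGCC is at position -148 from the start, and neither GTCT nor its complement AGAC, the core of the SMAD-binding element, is in this window. Over 32851 RefSeq promoter windows of the same length, 9.59% held GGCGCC and 82.9% held GTCT on either strand. The other motif searched, GCCGNCGC, was in 6.89% of these windows, 1 time in the Id4 window, 3 times in the printed Smad5 window and 0 times in that of Smad6. GC bases made up 75.6% of the Id4 window against a median of 52.4% over all windows. Of the 10 genes, 7 were in the promoter table. Such a match describes letters only, not a site in use.

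Id3, on chromosome 4 from 136143822 to 136145392, was the most abundant of the 10 genes in female control, female Snf5 CKO and male Snf5 CKO. In females it was at 157 and 281 FPKM in control and at 651 and 715 FPKM in Snf5 CKO. The controls differed from each other more than the mutants did, yet both were below both mutant libraries, and Id3 rose by 1.69 on the log2 scale (SE 0.31, adjusted p = 0.0035, limma). In males Id3 was at 11.7 and 15.7 FPKM in control and at 240.5 and 352 FPKM in Snf5 CKO. The mutant mean was 21.7 times the control mean, the largest ratio among the 9 members tested in either sex. Its log2 fold change was 4.33 (SE 0.26, adjusted p = 0.00213, limma).

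Id1, on chromosome 2 from 152736251 to 152737410, is the best known direct target of BMP SMADs. In females it was at 106 and 115 FPKM in control and at 264 and 274 FPKM in Snf5 CKO. Replicates were close together in both groups, and Id1 rose with a log2 fold change of 1.28 (SE 0.18, adjusted p = 0.00124, limma). In males Id1 was at 3.54 and 3.30 FPKM in control and at 5.01 and 7.48 FPKM in Snf5 CKO. The groups did not overlap, but the mutant replicates lay apart and the difference did not pass the test (0.69, SE 0.24, adjusted p = 0.0654, limma).

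Id2, on the minus strand of chromosome 12 from 25093799, was at 23.2 and 29.02 FPKM in female controls and at 103 and 110.3 FPKM in female Snf5 CKO. With a ratio of 4.09 between the means, it had the largest female fold change of the ID genes that rose (2.0, SE 0.18, adjusted p = 0.000231, limma). In males it was at 2.64 and 2.37 FPKM in control and at 6.52 and 6.05 FPKM in Snf5 CKO. The male replicates agreed closely and Id2 rose by 1.06 on the log2 scale (SE 0.18, adjusted p = 0.00956, limma), just past the fold threshold. Id2 was no longer called in males without male control replicate 2 (1.0, adjusted p = 0.0528) or with libraries rescaled to a common sum over named genes (0.95, adjusted p = 0.103).

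The make-up of the ID family was computed within each library, since FPKM is scaled by transcript length and can be compared between genes. In male controls Id4 held 59.9% and 66.7% of the summed ID FPKM, and Id3 held 26.3% and 24.5%. In male Snf5 CKO, Id3 held 94.6% and 95.1%, and Id4 0.900% and 1.25%. Id3 was thus below Id4 in both male controls, with ratios of Id3 to Id4 of 0.439 and 0.367, and above it in both mutants, with ratios of 105 and 75.9. In females Id3 held the largest share in all 4 libraries, 50.2% and 62.4% in control and 63.6% and 64.7% in Snf5 CKO. The female share of Id4 was 8.41% and 5.66% in control and 0.539% and 0.505% in Snf5 CKO. The shares of Id1 and Id2 in females lay between 24.8% and 34.0% and between 6.44% and 10.1%. The summed level of the family was 313 and 451 FPKM in female control, 1024 and 1105 in female Snf5 CKO, 44.6 and 64.0 in male control, and 254 and 371 in male Snf5 CKO. No level was tested between the sexes, whose tables had been normalized separately.

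**Figure D2:**
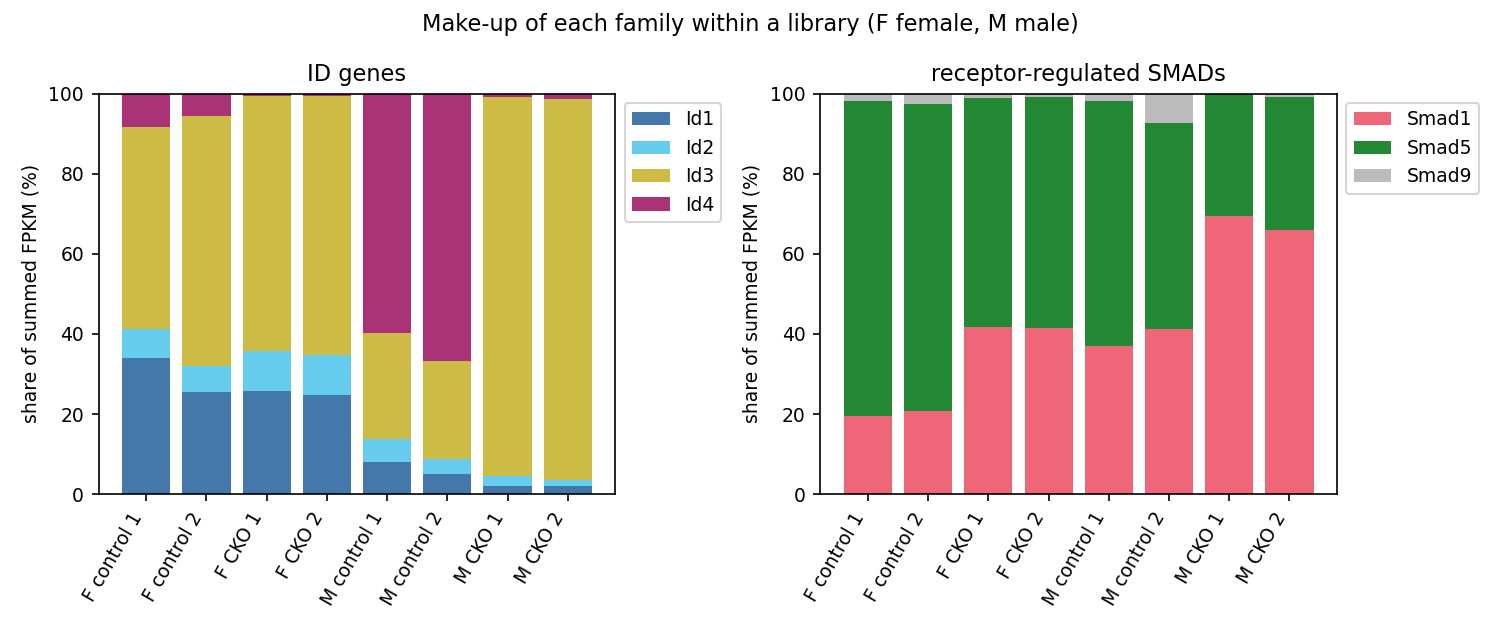
Share (%) of each gene in the summed FPKM of its family, for the ID genes (left) and the receptor-regulated SMAD genes (right), with 1 bar for each of the 8 libraries. Id4 takes 59.9% and 66.7% of the male control bars and 1.25% or less of every Snf5 CKO bar, and Smad1 takes a larger part of the Snf5 CKO bars than of the control bars in both sexes.

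Smad1, Smad5 and Smad9 encode the SMADs that BMP receptors phosphorylate. Smad5 was the most abundant of these in both control groups. In females it was at 21.9 and 20.3 FPKM in control and at 8.74 and 6.98 FPKM in Snf5 CKO. Both mutant libraries were below both controls, and Smad5 fell by 1.33 on the log2 scale (SE 0.19, adjusted p = 0.00119, limma). In males it was at 6.84 and 5.37 FPKM in control and at 5.76 and 5.35 FPKM in Snf5 CKO. The male groups overlapped, with a log2 fold change of -0.11 (SE 0.20, adjusted p = 0.691, limma) whose sign flipped to 0.0296 with median-of-ratios rescaling and to 0.0412 without male control replicate 1. The gene lies on the plus strand of chromosome 13 from 56703010 to 56742378 in mm10. Its promoter, chr13:56702760-56703009 of GRCm38.p6 before the first of its RefSeq starts in the table, is given for comparison with Id4, the other member that fell in females, with GTCT in capitals.
Smad5: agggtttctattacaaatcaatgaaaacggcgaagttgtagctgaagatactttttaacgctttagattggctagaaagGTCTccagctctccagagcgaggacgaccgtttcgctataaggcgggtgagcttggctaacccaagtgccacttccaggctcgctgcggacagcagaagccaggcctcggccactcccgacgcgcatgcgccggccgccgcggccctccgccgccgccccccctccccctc
GTCT is at position -171 from the start, GGCGCC is not in this window, and GC bases make up 60% of it. The table has 3 windows for Smad5, and the second, from 56702802 to 56703051, which overlaps an annotated exon and is not printed, holds GGCGCC at position -19.

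Smad1 behaved differently from Smad5 in each sex. In females it was at 5.46 and 5.47 FPKM in control and at 6.41 and 5.005 FPKM in Snf5 CKO. The mutant values lay on either side of the controls, and no difference passed the test (0.04, SE 0.20, adjusted p = 0.858, limma). The value was -0.11 without female Snf5 CKO replicate 1. In males Smad1 was at 4.15 and 4.31 FPKM in control and at 13.2 and 10.6 FPKM in Snf5 CKO. The groups did not overlap and Smad1 rose by 1.29 (SE 0.20, adjusted p = 0.00717, limma), a call that was lost with libraries rescaled to a common sum (1.17, adjusted p = 0.0634).

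Smad9 was the least abundant of the 10 genes in every group. It was at 0.532 and 0.698 FPKM in female control, at 0.159 and 0.0923 in female Snf5 CKO, at 0.211 and 0.757 in male control and at 0.0256 and 0.127 in male Snf5 CKO. Both mutant libraries were below both controls in each sex. With no filter on low values the log2 fold change was -0.52 in females (adjusted p = 0.00929, limma) and -0.44 in males (adjusted p = 0.152), under the fold threshold in both.

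The balance between the receptor-regulated SMAD genes differed between the groups in both sexes. Smad1 held 19.6% and 20.7% of their summed FPKM in female control and 41.8% and 41.5% in female Snf5 CKO. In males its share was 37.1% and 41.3% in control and 69.6% and 65.9% in Snf5 CKO. Smad5 was the gene called in females and Smad1 the gene called in males. The summed level of the 3 genes was 27.9 and 26.5 FPKM in female control against 15.3 and 12.1 in Snf5 CKO, whereas in males it was 11.2 and 10.4 in control against 19.0 and 16.0 in Snf5 CKO.

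Smad4, on chromosome 18, encodes the common partner of all receptor-regulated SMADs. In females it was at 30.4 and 19.6 FPKM in control and at 46.8 and 38.4 FPKM in Snf5 CKO. The groups did not overlap, but the log2 fold change of 0.77 stayed under the threshold of 1 (SE 0.24, adjusted p = 0.0286, limma). Without female control replicate 1 it was 1.07 (adjusted p = 0.00295) and passed, whereas it was 0.47 (adjusted p = 0.142) without female control replicate 2 and 0.63 (adjusted p = 0.106) without female Snf5 CKO replicate 1. In males Smad4 was at 45.4 and 36.1 FPKM in control and at 51.7 and 33.7 FPKM in Snf5 CKO. These groups overlapped (0.04, SE 0.27, adjusted p = 0.906, limma), and the sign of the male value changed with a common sum (-0.14), without male control replicate 2 (-0.12) and without male Snf5 CKO replicate 1 (-0.26).

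Smad6 and Smad7 encode the inhibitory SMADs. Smad6 was at 5.71 and 7.15 FPKM in female control and at 30.9 and 28.1 FPKM in female Snf5 CKO. Every mutant library was far above every control, and Smad6 rose by 2.04 on the log2 scale (SE 0.19, adjusted p = 0.000237, limma). In males it was at 4.39 and 5.64 FPKM in control and at 15.2 and 17.9 FPKM in Snf5 CKO. The male groups were also apart, with a mutant mean 3.30 times the control mean and a log2 fold change of 1.55 (SE 0.21, adjusted p = 0.00511, limma). Smad6, Id2 and Id3 were the members called higher in both sexes, and Id4 the one called lower in both.

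The promoter of Smad6 is shown as that of a member that rose in both sexes. It covers chr9:64022060-64022309 of GRCm38.p6, read on the minus strand, before the RefSeq start at the end of the annotated gene (chromosome 9 from 63953076 to 64022059), and capitals mark GTCT.
Smad6: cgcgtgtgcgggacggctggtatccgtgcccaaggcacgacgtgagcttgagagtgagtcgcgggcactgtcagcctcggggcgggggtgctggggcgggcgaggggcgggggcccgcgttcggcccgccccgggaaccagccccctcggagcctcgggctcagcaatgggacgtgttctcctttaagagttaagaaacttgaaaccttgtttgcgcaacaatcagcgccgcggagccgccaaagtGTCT
GTCT is at position -4 from the start, GGCGCC is not in the window, and GC bases make up 66.8% of it. The locus of Smad6 in both tables extends beyond the annotated start, to 64022856 in females and 64022835 in males, across this window. Windows not printed did not divide by direction. That of Id2, which also rose in both sexes, held GGCGCC at -231 and GTCT or its complement at -23. That of Smad9 held GGCGCC at -51 and AGAC at -181. The Id3 window held GTCT or its complement without GGCGCC, and that of Smad1 held neither.

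Smad7, on chromosome 18, was at 1.60 and 1.33 FPKM in female control and at 8.90 and 7.29 FPKM in female Snf5 CKO. The mutant mean was 5.54 times the control mean, the highest ratio of the 9 female members tested, and Smad7 rose by 1.88 on the log2 scale (SE 0.20, adjusted p = 0.000382, limma). In males it was at 7.92 and 6.20 FPKM in control and at 14.0 and 12.7 FPKM in Snf5 CKO. The groups did not overlap and the adjusted p was 0.0243 (limma), but the log2 fold change of 0.84 (SE 0.20) was under the threshold.

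The inhibitory SMAD genes were also set against the receptor-regulated ones within each library. The ratio of Smad6 plus Smad7 to Smad1 plus Smad5 plus Smad9 was 0.262 and 0.320 in female control and 2.60 and 2.93 in female Snf5 CKO. In males it was 1.10 and 1.13 in control and 1.53 and 1.91 in Snf5 CKO. In both sexes the mutant ratios were above the control ratios, with the wider gap in females, where the receptor-regulated sum was lower in Snf5 CKO and the inhibitory sum higher. Smad6 was above Smad7 in all female libraries, with ratios between 3.48 and 5.39. In males the ratio of Smad6 to Smad7 was 0.554 and 0.910 in control and 1.09 and 1.41 in Snf5 CKO.

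**Figure D3:**
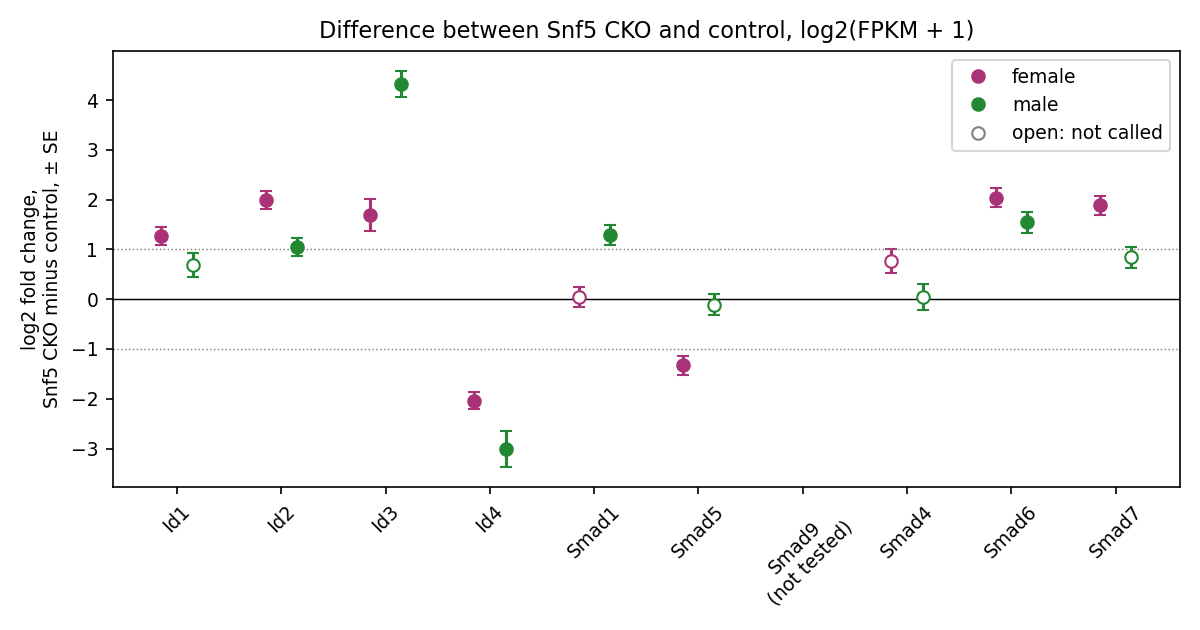
Log2 fold change (Snf5 CKO minus control, log2(FPKM + 1)) of each member with its standard error from limma, for females and males; filled points were called, open points were not, and dotted lines mark a log2 fold change of 1 in size. Id4 lies at -2.04 and -3.01 and Smad6 at 2.04 and 1.55 in females and males, whereas Smad5 (-1.33 and -0.11) and Smad1 (0.04 and 1.29) each passed in 1 sex.

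The order of the levels differed between the groups. In female control it ran Id3, Id1, then Id2, Id4, Smad4 and Smad5, whose neighbours overlapped in range, then Smad6, Smad1, Smad7 and Smad9. In female Snf5 CKO it ran Id3, Id1, Id2, Smad4, Smad6, then Smad7 and Smad5 with overlapping ranges, Smad1 and Id4 with overlapping ranges, and Smad9. In male control Smad4 and Id4 led with overlapping ranges, followed by Id3, then Smad7, Smad5 and Smad6, whose neighbours overlapped, then Smad1, Id1, Id2 and Smad9. In male Snf5 CKO it ran Id3, Smad4, Smad6, then Smad7 and Smad1 with overlapping ranges, Id2, Id1 and Smad5, whose neighbours overlapped, Id4 and Smad9. Id4 was thus the second gene of the 10 in male control and the ninth in male and female Snf5 CKO.

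The groups did not overlap for 8 of 9 female and 7 of 9 male members tested, where 81.6% and 74.5% of all genes tested had groups that did not overlap.

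The sorted samples also held transcripts of gonadal somatic cells, and some of these differed between the groups. The sort purities that the study lists overlapped between male control and male Snf5 CKO. The male Snf5 CKO libraries came from fewer mice than the male controls. The summed FPKM of 8 Sertoli cell markers was 125 and 100.2 in male control and 522 and 833 in male Snf5 CKO, and 7 of the 8 were above both controls in both mutants. The defining markers were Sox9 (2.98 and 2.51 FPKM in control, 11.1 and 11.4 in Snf5 CKO) and Amh (17.3 and 16.5 in control, 69.7 and 119.5 in Snf5 CKO). This moved with the higher Id2, Id3, Smad1 and Smad6 in males, and its part in these results was not tested. The sum of 6 Leydig cell markers in males was 89.4 and 60.3 FPKM in control and 29.6 and 27.2 in Snf5 CKO, with 5 of 6 below both controls and Nr5a1 above them (3.76 and 2.08, then 10.5 and 12.1). In females the same sum was 5.36 and 5.57 in control and 14.6 and 13.2 in Snf5 CKO, with 3 of 6 above both controls and Cyp11a1 and Cyp17a1 at 0.264 FPKM or less. The sum of 9 stromal markers in males was 23.6 and 12.5 in control and 5.12 and 3.67 in Snf5 CKO. In females the sum of 7 pre-granulosa markers was 9.09 and 11.3 FPKM in control and 25.4 and 22.1 in Snf5 CKO, with 6 of 7 above both controls. Foxl2, which defines these cells, was at 0.328 and 1.13 FPKM in control and at 1.67 and 2.07 in Snf5 CKO, and Fst at 1.3002 and 2.73 and at 8.33 and 7.35. This moved with the higher Id1, Id2, Id3, Smad6 and Smad7 in females, and its part in these results was not tested either. The Sertoli list in females summed to 7.49 FPKM or less, with Sox9 and Amh at 0.132 FPKM or less. The sum of 7 endothelial markers in females was 7.06 and 5.09 FPKM in control and 25.2 and 20.3 in Snf5 CKO, nearly all of it Pecam1 (4.10 and 3.65, then 24.3 and 19.7), while Cdh5 was at 0.131 FPKM or less. No marker listed was at 0 in all libraries of a sex. Over all genes tested, the groups did not overlap in either direction for 81.6% in females and 74.5% in males. The share of all genes in 1 direction was not computed. The counts of markers above or below both controls therefore cannot be read as more than that share.

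The other genes of the BMP pathway were taken from a list of 63 genes arranged by role. In females 48 of 63 were tested, of which 19 rose and 7 fell, with a median log2 fold change of 0.69. In males 49 were tested, of which 10 rose and 8 fell, with a median of 0.29. These shares can be read against the 38.9% and 31.8% of all genes that were called in either direction.

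Among other targets of BMP signalling, 5 of 6 rose in females and none fell. Msx2, a homeobox gene induced by BMP in many tissues, was at 7.33 and 9.26 FPKM in female control and at 59.6 and 57.9 in Snf5 CKO (log2 fold change 2.69, adjusted p = 0.000108, limma). Hey1, a bHLH repressor, rose by 1.96 and Msx1, a relative of Msx2, by 1.73. In males 2 of the 6 rose and 2 fell. Male Msx1 was at 0.0727 and 0.178 FPKM in control and at 3.11 and 1.44 in Snf5 CKO (1.49, adjusted p = 0.0126, limma). The genes that fell in males were Zglp1 (-1.78) and Atoh8 (-1.42), a bHLH factor.

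Zglp1 was at 16.3 and 33.3 FPKM in female control and at 42.8 and 40.8 FPKM in female Snf5 CKO. The female controls were far apart, and the difference was not called (0.81, SE 0.31, adjusted p = 0.058, limma). The value was 0.32 (adjusted p = 0.313) without female control replicate 1 and 1.304 (adjusted p = 0.000557), past the threshold, without female control replicate 2. In males Zglp1 was at 31.3 and 39.4 FPKM in control and at 6.96 and 13.0 FPKM in Snf5 CKO, and it fell by 1.78 on the log2 scale (SE 0.32, adjusted p = 0.0106, limma).

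Of 8 ligand genes 2 were tested in each sex. In females Bmp7 rose by 1.26 and Bmp2 fell by 1.18, from 3.80 and 3.47 FPKM to 1.32 and 0.812. Without female Snf5 CKO replicate 2 the value of Bmp2 was -0.9998 and just under the threshold. In males Bmp4 fell by 1.19, from 3.98 and 4.44 FPKM to 0.876 and 1.77, and its value was -0.91 without male Snf5 CKO replicate 1. Among 6 receptor genes tested, Acvr1, which encodes a type I receptor, rose in females from 1.94 and 0.785 FPKM to 10.1 and 7.92 (2.12, adjusted p = 0.000898, limma). Amhr2, the type II receptor of anti-Müllerian hormone, rose by 1.40 in females and by 2.54 in males, where the summed Sertoli cell markers were also higher in both mutants. Bmpr2 fell by 1.03 in females, and its size was under 1 with median-of-ratios rescaling (-0.94), without female control replicate 2 (-0.91) and without female Snf5 CKO replicate 1 (-0.84). Bmpr1a, a type I receptor, rose by 1.27 in males, and not with a common sum (1.12, adjusted p = 0.0767).

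Among 4 co-receptor and decoy receptor genes, 3 rose in females and 1 in males. Rgma, a co-receptor of BMP, was at 0.909 and 1.17 FPKM in female control and at 9.93 and 9.19 in Snf5 CKO (2.37, adjusted p = 0.000161, limma). Eng, which encodes endoglin, rose in both sexes (1.54 and 1.20), and Bambi, a receptor without a kinase domain that dampens the signal, rose by 1.26 in females. Of 5 extracellular antagonists tested in each sex, Fst (1.59) and Twsg1 (1.35) rose and Bmper (-1.67) fell in females (Fst, like Bmp2, is also among the pre-granulosa markers), and none was called in males by limma, where 1 of the 5 had an unadjusted p under 0.05. Neither of the SMADs of the activin branch was called in either sex by limma, with both in females and 0 in males at an unadjusted p under 0.05. Smad2, the more abundant, was at 25.3 and 18.7 FPKM in female control and at 15.9 and 13.0 in Snf5 CKO.

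Of 15 intracellular regulators 4 rose and 3 fell in females, and 2 rose and 4 fell in males. Rnf111, a ubiquitin ligase that removes SMAD7 and other repressors, fell by 1.26 in females. The phosphatase genes Ctdsp1 (1.55) and Ppm1a (1.26) rose in females, the latter not without female control replicate 2 (0.96). In males Nedd4l, a ubiquitin ligase, was at 17.5 and 12.2 FPKM in control and at 0.899 and 0.901 in Snf5 CKO, a log2 fold change of -3.04 (adjusted p = 0.00221, limma). Tgif1, a transcriptional repressor that binds SMADs, fell by 1.71, and Smurf1, a ubiquitin ligase for BMP SMADs, fell by 1.59. Zfp423, a zinc finger partner of BMP SMADs, was 1 of 3 nuclear partners tested and the one called in each sex (1.38 in females and 2.45 in males).

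The bHLH genes whose products ID proteins can bind, or that drive germ cell differentiation, held the largest falls of the list. Figla, an oocyte factor, was at 146 and 213 FPKM in female control and at 10.9 and 22.3 in Snf5 CKO (-3.41, adjusted p = 0.000313, limma). Sohlh1 was at 51.1 and 62.1 FPKM in male control and at 1.44 and 2.14 in Snf5 CKO (-4.37, adjusted p = 0.00213, limma). Its relative Sohlh2 went the other way in males and rose by 1.80. Among the E proteins, Tcf4 rose by 1.08 in females, but by 0.99 without female Snf5 CKO replicate 1. Tcf12 rose by 1.04 in males (adjusted p = 0.046, limma), a call lost without male control replicate 2 (0.72), without male Snf5 CKO replicate 1 (0.76), with a common sum (0.87), and, at the same value, with either other filter or without the trend. 

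**Figure D4:**
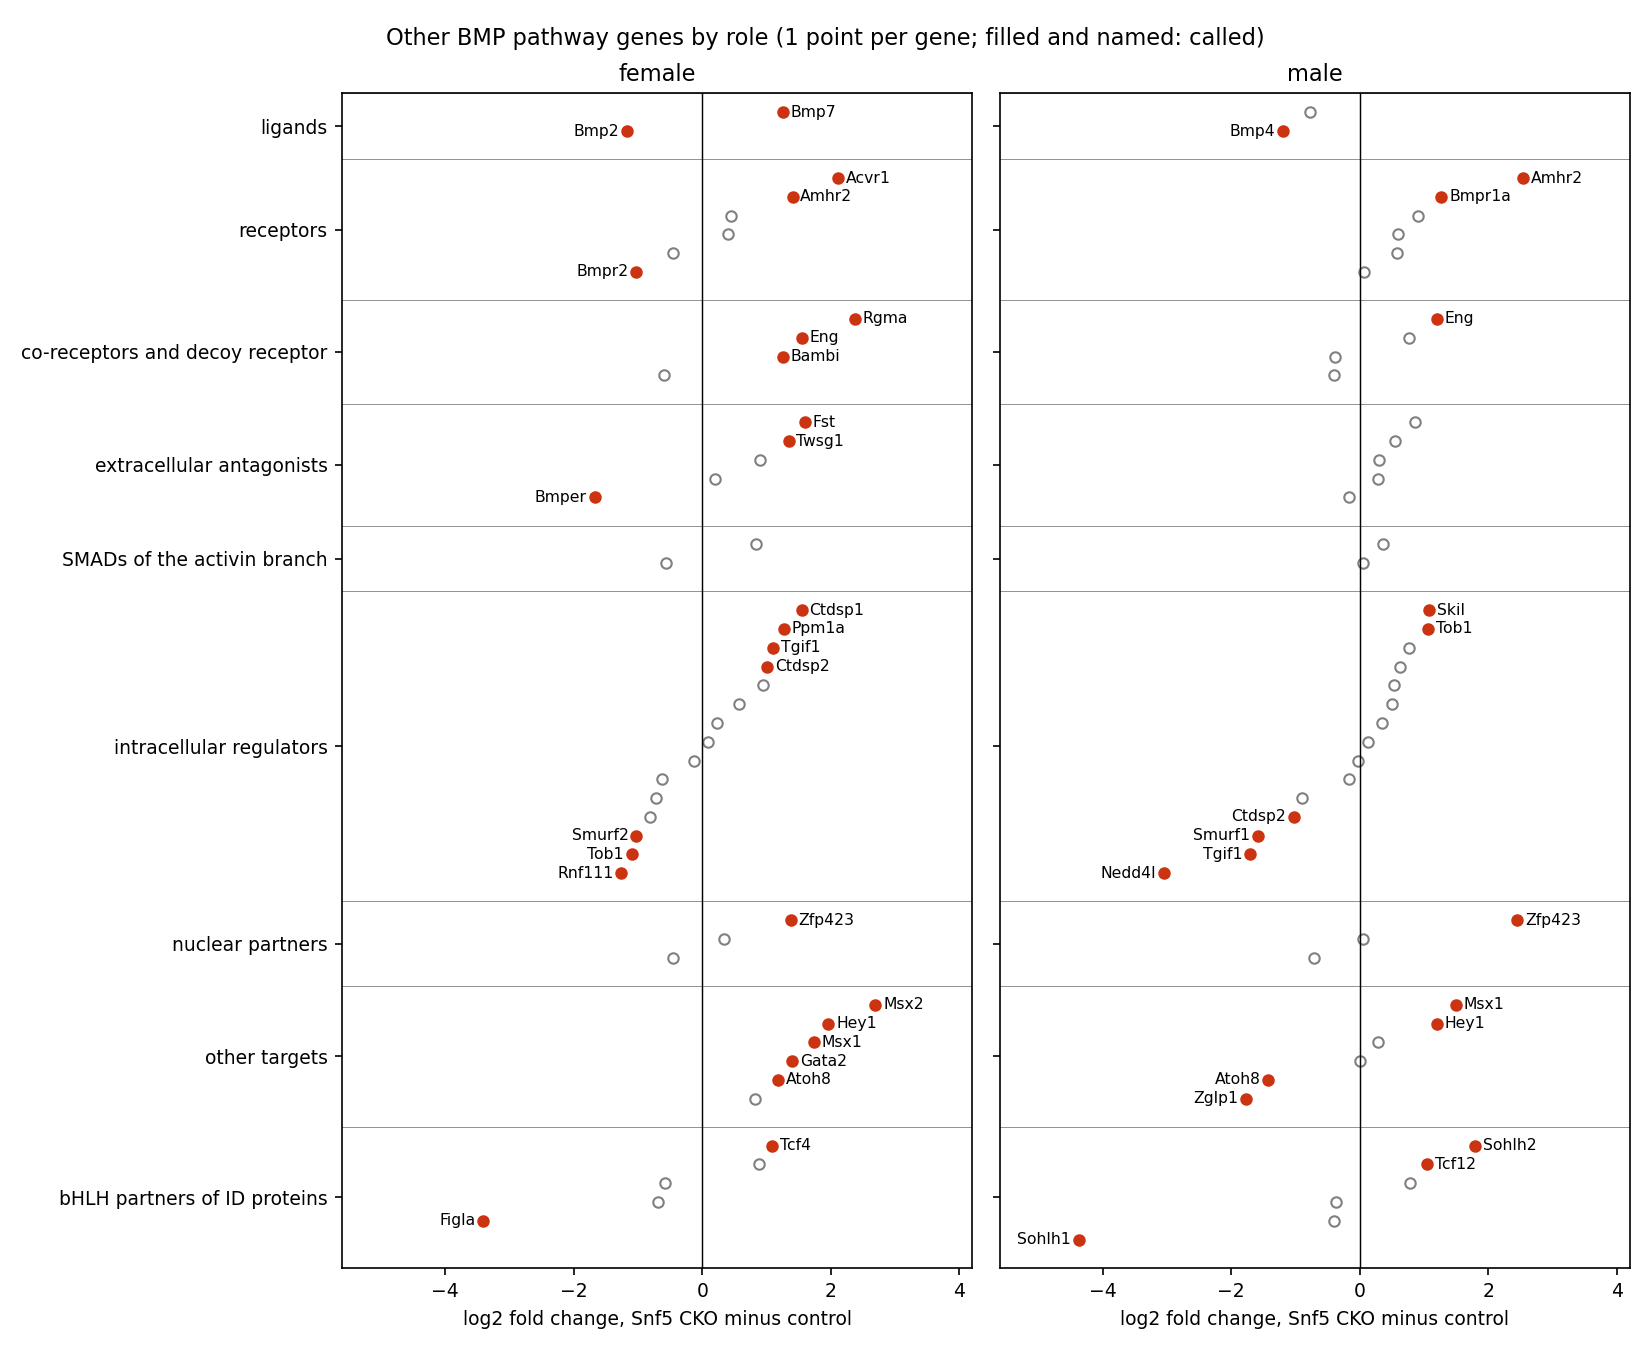
Log2 fold change (Snf5 CKO minus control, log2(FPKM + 1)) of the tested genes of the pathway list, 48 in females and 49 in males, grouped by role, with 1 point per gene. Filled and named points were called: 19 lie to the right and 7 to the left of 0 in females, and 10 to the right and 8 to the left in males.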

How the data were processed

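RNA-Seq of sorted E15.5 germ cells gave 8 libraries, grouped by their labels. The authors mapped reads with TopHat, quantified them with the Cufflinks package on mm10 and deposited 1 table per sex of FPKM values, which are scaled by transcript length and library size. The sources used here give tool versions that differ and no annotation version. 16 columns of confidence bounds were not used, and 1 was added to the starts, which the tables count from 0. Rows without a gene name, holding 5.46% to 42.1% of a library's FPKM, were left out. In males this share was 6.56% (control) and 5.46% (Snf5 CKO) in replicate 1, and 42.1% and 35.4% in replicate 2. In females it was 36.7% and 35.3% in control replicates 1 and 2, and 9.94% and 28.2% in those of Snf5 CKO. A gene with several rows was represented by the row of highest mean FPKM.

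The values were fitted separately per sex as log2(FPKM + 1) in R 4.3.3, using lmFit and eBayes (trend) of limma 3.58.1, two-sided, for genes whose mean reached 1 FPKM. The fitting steps were run on simulated data with large changes in a small set of genes and independent noise. That run does not bear on small changes, on changes in many genes or on deviations shared between libraries. Depth is known only in relative terms, so no counting interval is given. The male control replicate 2 steps fit nearly as well to about double the depth printed. The alternatives tried were no filter, a filter at 5 FPKM, a pseudocount of 0.1, common-sum and median-of-ratios rescaling, no trend, no moderation, the replicate block, summed rows, status OK alone, and each library left out. The main fit had no block, so the p-values printed are not adjusted for replicate number. Only in the replicate block alternative were replicate numbers treated as a possible shared batch. The reason was that the labels name the raw files of replicates 1 and 2 in different styles. The male column headers also number the control and Snf5 CKO libraries by experiment. The methods of the study name different sequencers and read lengths without assigning them to libraries. None of this establishes a batch. With the block, the adjusted p was 0.0165 for male Id1 and 0.00133 for female Smad4 (limma), with both genes still under the fold threshold. The deviations of replicate 2 from replicate 1 correlated across genes with r = 0.500 (females) and r = 0.607 (males).

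The members, gene lists and naming rule were chosen with earlier results of these data known. All members were named, and in each role and sex up to 3 called pathway genes of largest change; roles without a call were given by counts, with at most 1 example. The motifs GGCGCC and GTCT and also GCCGNCGC were searched on both strands, with no overlap between the first pair in the windows shown, in RefSeq promoters of GRCm38.p6. Promoters of Id1, Smad4 and Smad7 were not in the table. Gene spans came from GENCODE. Figures used matplotlib 3.10.9 in Python 3.11.15.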

Additional observations from a re-analysis of the deposited data

Results flagged for a closer look

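In 11 genes of the pathway list tested in both sexes, both Snf5 CKO libraries lay on one side of both controls in females and on the opposite side in males, and these were singled out after their values were seen. The list had 48 genes tested in females and 49 in males. Over all genes tested, the groups did not overlap for 81.6% in females and 74.5% in males. The share of all genes on opposite sides was not computed, so the count of 11 cannot be read as more than that share. The difference between the sexes was not tested, since the tables were normalized separately. None of the 10 ID and SMAD genes was among these 11 genes. Tob1, which encodes an antagonist of BMP SMADs, had a log2 fold change of -1.10 in females and 1.07 in males. Without female control replicate 1 the female value was -0.81, and with median-of-ratios rescaling -0.94. In males the call was lost with a common sum (0.91) and without male control replicate 1 (1.03, adjusted p = 0.0503, limma). Ctdsp2, a phosphatase gene, had 1.01 in females and -1.02 in males. The female value was 0.46 without female control replicate 2 and 0.79 without female Snf5 CKO replicate 1, and the male value was -0.82 without male control replicate 1, -0.84 without male Snf5 CKO replicate 2 and -0.87 with median-of-ratios rescaling. Tgif1 had 1.10 in females and -1.71 in males, and its female value was 0.98 without female control replicate 2 and 0.95 without female Snf5 CKO replicate 1. Atoh8 had 1.18 in females and -1.42 in males. These 4 genes were called in both sexes. Zglp1 had 0.81 in females, which was not called, and -1.78 in males. Of the others, each called in at most 1 sex, Bmp7 had 1.26 in females and -0.78 in males, Rgma 2.37 and -0.41, Tcf3 0.88 and -0.40, Tcf12 -0.69 and 1.04, and Sohlh2 -0.58 and 1.80. Smurf2 had -1.03 in females, and -0.95 without female Snf5 CKO replicate 2, and 0.34 in males. Bmpr2 and Bmper, which fell in females, were below the filter in males, where Bmpr2 was at 0.271 and 0.339 FPKM in control and at 0.381 and 0.754 in Snf5 CKO, and Bmper at 0.324 and 0.266 and at 0.620 and 0.762.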

How the results depend on the processing

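Among the 9 female members tested, 7 were called, and 7 to 8 with 1 library left out. Among the 9 male members 5 were called, and 4 to 5 with 1 library left out. The male count was 3 with libraries rescaled to a common sum and 0 without moderation of the variance (limma, with 6 of 9 at an unadjusted p under 0.05). Of the pathway list, 26 genes were called in females and 18 in males, 23 to 26 and 16 to 17 with 1 library left out. A mean of at least 5 FPKM left 31 and 30 of these genes to test and 13 and 11 calls, and no moderation gave 10 and 2 calls. The cause of the changes with rescaling and moderation was not tested. Without moderation the genes called over all tested were 1054 lower and 871 higher in females and 369 lower and 279 higher in males, and with a mean of at least 5 FPKM 1347 were lower in males. The signs that changed belonged to values that were not called: Smad1 in females (-0.11 to 0.20 with 1 library left out), Smad5 in males (0.0296 with median-of-ratios rescaling, up to 0.0412 with 1 library left out) and Smad4 in males (-0.14 with a common sum, and -0.26 to 0.34 with 1 library left out). Female Id3 and Smad5 lost their calls without moderation (adjusted p = 0.112 and 0.0542). Median-of-ratios rescaling moved the median of all genes from -0.13 to 0.02 in females and from -0.07 to 0.07 in males, and a common sum moved it to -0.26 in males. The share of called genes that were higher was 45.2% in males, 33.8% with a common sum and 54.4% after the median-of-ratios step. With the replicate block, 7 and 5 members and 26 and 18 pathway genes were called in females and males, and no call changed. The tables hold no counts, so genes at low FPKM such as Smad9 have an unknown counting error.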
